A study of Mus musculus with 9 samples.

Results

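Ms4a1 (CD20), Cd22, Cd37, Cd52, Cd38, Cd24a and Cd81 encode surface proteins of B cells that antibodies or engineered cells have been directed against in B cell leukemia. These 7 genes were chosen by name for that use, out of 22174 mouse genes with an entry in the quantification examined here, and their RNA was compared among leukemias of Eµ-MTCP1 mice, leukemias of Eµ-TCL1 mice and B cells of wildtype mice. RNA-sequencing covered splenic B cells of 9 mice of strain C57/BL6NTac, with 1 library per mouse and 3 mice per group. The Eµ-MTCP1 mice (Z2551, Z2606 and Z2641, all from founder line Z36) carry human MTCP1 under a VH promoter and the IgH-Eµ enhancer, which directs it to B cells. The Eµ-TCL1 mice (B4376, B4437 and C1594) carry human TCL1A, and the wildtype mice (Z2754, Z2755 and Z2785) are littermates without a transgene. B cells were enriched from whole spleen by depleting other cells with a pan B cell kit, no treatment is labelled, and ages are not given in the sources used here. Each transgenic library is therefore 1 leukemia set against the mixed B cells of a healthy spleen, and a single founder line stands for Eµ-MTCP1.

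B cell antigens of this kind fall into several protein families. CD20 spans the membrane 4 times and belongs to the MS4A family, CD22 is a sialic acid binding lectin that restrains signaling of the B cell receptor, and CD37 and CD81 are tetraspanins, which organise other receptors in the membrane. CD52 and CD24 are very short, heavily glycosylated peptides held by a glycosylphosphatidylinositol (GPI) anchor, and CD38 is an ectoenzyme that consumes NAD. An antibody needs its antigen on the cell surface, and RNA measures only 1 of the steps that set the surface amount.

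The quantification with the human transgenes has a property that bears on every value of these antigens. Of 57301 mouse transcripts with a coding part, 92.2% were entered in that reference at exactly their coding length, so reads of the untranslated ends were not counted there. It is called the coding reference below, and the second quantification of the same libraries, on 140748 transcripts of which 99.8% have their full exon length, the standard reference. Between 6464089 and 8053017 reads per library were assigned on the coding reference and between 11438681 and 14070588 on the standard reference. The library of wildtype mouse Z2755 was the only 1 on its sequencing lane. Human TCL1A stood at 14.9 to 15.6 in Eµ-TCL1 mice and at 6.04 to 6.96 in the other mice on the log2-like scale of the authors, and human MTCP1 at 11.1 to 12.3 in Eµ-MTCP1 mice and at 5.85 to 6.19 in the others, so that both transgenes followed the labels.

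How much of each antigen the coding reference kept differed widely between the genes. For Cd22, whose main transcripts are mostly coding, it kept between 58.3 and 67.2% of the reads of the standard reference. For Ms4a1 it kept 32.8 to 39.7%, for Cd52 20.8 to 23.96%, and for Cd24a 5.21 to 8.96%. The Cd24a values of the coding reference therefore rest on 247 to 674 reads per mouse, against 3490 to 8422 on the standard reference. For none of the 7 genes did the share kept separate the 6 transgenic from the 3 wildtype mice.

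**Figure D1:**
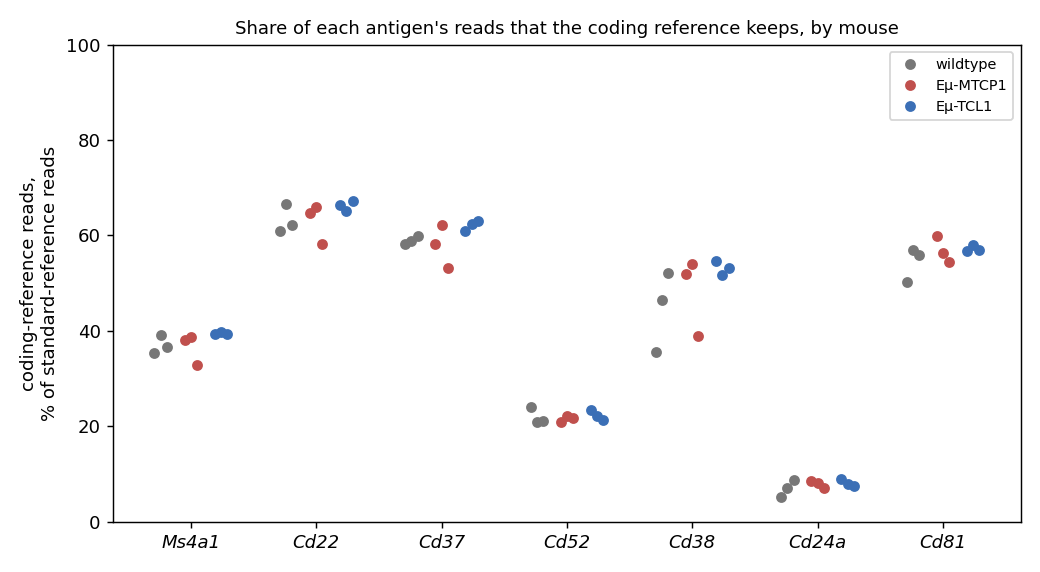
Reads assigned to each antigen on the coding reference as a percentage of its reads on the standard reference (vertical axis, 0 to 100%), with 1 point per mouse coloured by group. Cd24a lies lowest, at 5.21 to 8.96%, and Cd22 highest, at 58.3 to 67.2%, and the groups overlap for every gene.

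Levels of different genes were compared in TPM, which divide reads by transcript length before scaling each library to 1 common total. On the standard reference Cd52 was the most abundant of the 7 in every group, with 4040 ± 17.7 TPM in wildtype, 3708 ± 1284 TPM in Eµ-MTCP1 and 4984 ± 940 TPM in Eµ-TCL1 mice (mean ± SD, n = 3). Cd37 came second with 1271 ± 122, 1172 ± 223 and 1205 ± 163 TPM, and its mice did not overlap with those of Cd52 above it or of the gene below it in any group. Cd38 had the lowest mean of the 7, with 79.4 ± 17.3, 85.9 ± 48.1 and 60.2 ± 3.90 TPM. It did not overlap with the gene ranked next above it, but Eµ-MTCP1 mouse Z2641, with 141 TPM of Cd38, lay above mouse Z2606 with 136 TPM of Cd22.

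The middle of the order differed between the groups. In wildtype mice Cd22 followed Cd37 with 355 ± 50.3 TPM, and then came Ms4a1 with 300 ± 52.0, Cd24a with 250 ± 46.3 and Cd81 with 196 ± 52.1, and each of these overlapped with the next. In Eµ-TCL1 mice Cd22 stood at rank 6 with 163 ± 23.97 TPM, below Ms4a1 with 400 ± 25.8, Cd24a with 377 ± 116 and Cd81 with 252 ± 50.7, and it overlapped with none of its neighbours. In Eµ-MTCP1 mice Cd22 stood at rank 5 with 199 ± 67.4 TPM, and it overlapped with Ms4a1 above it, at 314 ± 93.7, and with Cd81 below it, at 196 ± 22.8.

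On the coding reference Cd52, Cd37 and Cd38 held the same places, first, second and last. The short coding parts and a fragment of Cd22 touch the genes between them. The transcript Cd22-215, with 147 coding bases, held 19.98 to 43.8 of 8671 to 11815 Cd22 reads in wildtype mice and yet 49.9 to 66.1% of the Cd22 TPM. Cd22 accordingly stood at 565 ± 196 TPM in wildtype mice on that reference, and TPM are taken from the standard reference in what follows.

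**Figure D2:**
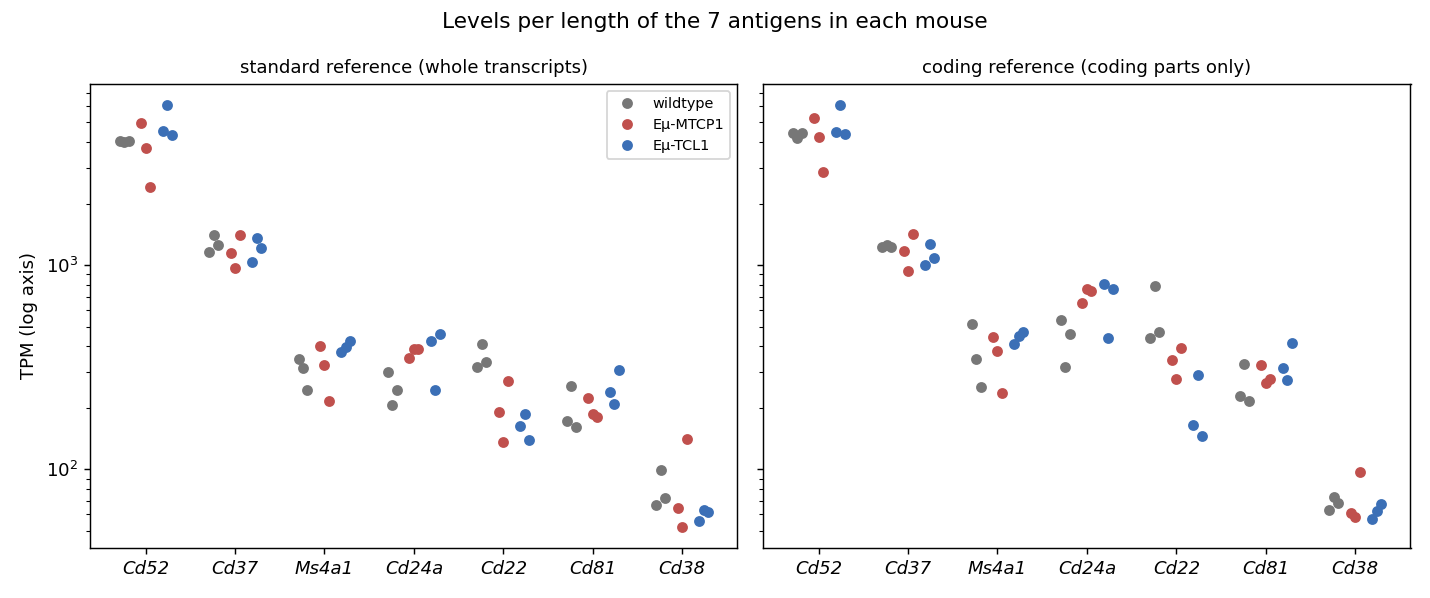
TPM of the 7 antigens in each mouse on a log axis, on the standard reference (left) and the coding reference (right), with points coloured by group. Cd52 and Cd37 lie above the others on both references, Cd38 has the lowest group means, and Cd22 of the 6 transgenic mice lies below Cd22 of the 3 wildtype mice on the left.

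Ms4a1 (GRCm38 chr19:11249675-11266241, minus strand) encodes CD20, the target of rituximab in its human form. Its read counts as CPM, a library's share of reads scaled by the trimmed mean of M-values (TMM, coding reference), were 782, 400 and 367 in wildtype mice Z2754, Z2755 and Z2785, then 715, 652 and 411 in Eµ-MTCP1 mice Z2551, Z2606 and Z2641, and 626, 728 and 753 in Eµ-TCL1 mice B4376, B4437 and C1594. Wildtype mouse Z2754 held the highest value of all 9 and Z2785 the lowest, so the groups overlapped throughout. The log2 fold change was 0.20 (95% interval -0.50 to 0.90; adjusted p = 0.732) in Eµ-MTCP1 and 0.44 (-0.26 to 1.15; adjusted p = 0.423) in Eµ-TCL1 against wildtype. With 1 library left out they ranged from 0.0022 (without Z2785) to 0.62 (without Z2754) and from 0.25 to 0.86 for the same mice. The transcript Ms4a1-201 took 90.5 to 94.6% of the gene's reads in transgenic and 91.4 to 94.5% in wildtype mice on the standard reference. Stretches of 104 to 162 bases of Ms4a1 transcripts match other genes at 95% identity or more, so reads there could have been shared.

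Genes around the antigens were read from lists, in the comparison of the mean of both transgenic groups with wildtype, called the averaged comparison below. It called 13.1% of all genes tested, and a gene called in it need not pass in each group alone. Of 7 further MS4A genes tested of 8 listed, 1 fell and 0 rose, with a median log2 change of -0.42 beside -0.02 over all genes tested. The gene that fell was Ms4a4c, with 81.6 ± 37.8 CPM in wildtype, 4.14 ± 1.497 in Eµ-MTCP1 and 8.47 ± 9.08 in Eµ-TCL1 mice (log2 fold change -3.78, adjusted p = 0.00142). Ms4a6d was called in Eµ-TCL1 mice, at 15.4 ± 8.13 against 3.89 ± 1.57 CPM, while Eµ-MTCP1 mice held 3.64 ± 1.76.

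Of 13 B cell transcription factors listed beside Ms4a1, 1 rose and 3 fell in the averaged comparison, beside 13.1% of all genes called. The median log2 change of the 13 was 0.14, beside -0.02 over all genes tested. Pou2f1, which encodes the octamer factor OCT1, rose from 60.4 ± 6.67 to 123 ± 17.99 CPM in Eµ-MTCP1 and 118 ± 6.09 in Eµ-TCL1 mice (log2 0.99, adjusted p = 0.00221). Irf8 fell from 549 ± 112 to 181 ± 68.0 and 208 ± 131 CPM (log2 -1.50, adjusted p = 0.0269). Foxo1 and Ets1 fell by 0.997 and by 0.806 on the log2 scale (adjusted p = 0.0384 and 0.0246). Pou2f1 was also called in each group alone, Ets1 in Eµ-MTCP1 alone, and Irf8 and Foxo1 in neither.

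Cd22 (chr7:30865402-30880342, minus strand) was the only 1 of the 7 genes with a lower fitted level in both transgenic groups. Its TMM CPM were 1130, 1283 and 1310 in wildtype mice Z2754, Z2755 and Z2785, and 700, 729 and 567 in Eµ-TCL1 mice B4376, B4437 and C1594. All 3 Eµ-TCL1 mice thus lay below all 3 wildtype mice. Eµ-MTCP1 mice Z2551 and Z2606 held 853 and 626, below wildtype, while Z2641 held 1197 and lay within the wildtype range. Mouse Z2641 also had the highest summed erythroid and platelet markers of the 9, at 319 CPM against at most 174, and the lowest share of reads kept by the coding reference for Ms4a1, Cd22 and Cd37 (32.8, 58.3 and 53.2%), and the part of these in its values was not tested.

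The fit gave Cd22 a log2 fold change of -0.90 ± 0.25 (SE) in Eµ-TCL1 against wildtype, with a 95% interval of -1.46 to -0.34, a fold of 0.536 and an adjusted p of 0.0517, so that it was not called at the threshold of 0.05. On the standard reference the values were -0.91 and 0.0573, and in the deposited gene count table -0.93 and 0.0511. DESeq2 on the same counts called it (-0.91, adjusted p = 0.00351). In Eµ-MTCP1 mice the change was -0.48 (-1.03 to 0.08; adjusted p = 0.266), and without mouse Z2641 it was -0.77 (adjusted p = 0.0753). In TPM of the standard reference, which are not scaled by TMM, all 6 transgenic mice (136 to 270) lay below the 3 wildtype mice (318 to 413). This separation depended on the scaling, as TMM CPM of the same reference overlapped, at 494 to 1068 against 971 to 1210. The share of all genes that separate in TPM was not counted, and in TMM CPM of the coding reference it was 18.6%. In bulk RNA, fewer cells that carry a transcript and less of it per cell cannot be told apart.

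Reads of Cd22 were spread over several transcripts on the standard reference. Cd22-203 held 43.7 ± 7.85% of them in wildtype, 38.1 ± 13.8% in Eµ-MTCP1 and 48.0 ± 6.08% in Eµ-TCL1 mice, and its transgenic range of 22.3 to 55.0% spanned the wildtype range. Cd22-214, annotated as a target of nonsense-mediated decay, held 12.8 ± 3.51, 16.6 ± 4.17 and 6.03 ± 2.73%. None of the 7 genes had a leading transcript whose share separated the 6 transgenic from the 3 wildtype mice (background over genes with several transcripts 5.21%).

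Ligands of CD22 are sialic acids, and of 14 genes for their synthesis and for CD22 signaling 2 rose and 0 fell in the averaged comparison, a share near the 13.1% of all genes, with a median log2 change of 0.27. Cmah, which makes the glycolyl form of sialic acid that mouse CD22 binds best, rose from 105 ± 19.2 to 179 ± 57.4 CPM in Eµ-MTCP1 and 205 ± 15.98 in Eµ-TCL1 mice (log2 0.87, adjusted p = 0.0297). Nans, the sialic acid synthase, rose from 59.7 ± 9.77 to 95.8 ± 11.3 and 95.7 ± 2.53 CPM (log2 0.68, adjusted p = 0.0187). Nans was called in each group alone and Cmah in Eµ-TCL1 but not in Eµ-MTCP1 (adjusted p = 0.0872).

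Cd81 (chr7:143052739-143067934, plus strand) encodes a widely expressed tetraspanin that also serves as a receptor for hepatitis C virus in its human form. Its TMM CPM were 207, 276 and 238 in wildtype mice Z2754, Z2755 and Z2785, then 391, 311 and 334 in Eµ-MTCP1 mice Z2551, Z2606 and Z2641, and 362, 302 and 466 in Eµ-TCL1 mice B4376, B4437 and C1594. All 6 transgenic mice lay above all 3 wildtype mice, which held for 1 of the 7 genes on this scale and for 18.6% of all genes tested in either direction. The log2 fold change was 0.52 (0.05 to 0.99; adjusted p = 0.159) in Eµ-MTCP1, 0.65 (0.18 to 1.12; adjusted p = 0.0869) in Eµ-TCL1 and 0.58 (0.17 to 1.001; adjusted p = 0.0675) in the averaged comparison, for which DESeq2 gave 0.57 with an adjusted p of 0.0167.

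The separation of Cd81 depended on the scaling. TMM CPM of the standard reference were 302 to 479 in transgenic and 216 to 286 in wildtype mice, again without overlap. In TPM of the same reference, Eµ-MTCP1 mice held 196 ± 22.8, Eµ-TCL1 mice 252 ± 50.7 and wildtype mice 196 ± 52.1, and the ranges overlapped. With counts scaled by library size alone the log2 fold change in the averaged comparison was 0.39 (adjusted p = 0.193), beside a shift of -0.21 in the median of all genes.

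Cd37 (chr7:45233632-45239115, minus strand), a tetraspanin found mainly on mature B cells, held 1094, 1153 and 1409 TMM CPM in wildtype mice Z2754, Z2755 and Z2785. Eµ-MTCP1 mice Z2551, Z2606 and Z2641 held 1431, 1258 and 1773, and Eµ-TCL1 mice B4376, B4437 and C1594 held 1138, 1451 and 1380. The groups overlapped, and the log2 fold changes of 0.29 (-0.19 to 0.77; adjusted p = 0.439) and 0.12 (-0.36 to 0.60; adjusted p = 0.780) had intervals that span 0. Cd37-202 took 57.5 ± 5.03% of the gene's reads in wildtype, 54.8 ± 3.65% in Eµ-MTCP1 and 58.9 ± 5.68% in Eµ-TCL1 mice.

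Of 14 further tetraspanins tested of 15 listed, 1 rose and 1 fell in the averaged comparison, a share near the 13.1% of all genes, with a median log2 change of -0.02. Cd9, which marks B1, marginal zone and plasma cells among mouse B cells, rose from 53.5 ± 3.54 to 240 ± 91.0 CPM in Eµ-MTCP1 and 247 ± 123 in Eµ-TCL1 mice (log2 2.19, adjusted p = 0.00422). Cd82 fell from 133 ± 24.5 to 53.5 ± 15.6 and 76.2 ± 8.04 CPM (log2 -1.06, adjusted p = 0.00684). Cd9 was called in each group alone, and Cd82 in Eµ-MTCP1 but not in Eµ-TCL1 (adjusted p = 0.0660).

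Cd52 (chr4:134082448-134095082, minus strand), the target of alemtuzumab in its human form, and Cd24a (chr10:43578284-43584265, plus strand) encode GPI-anchored peptides whose coding parts are short enough to print whole. They are shown because on the coding reference nearly all reads of both genes came from these stretches, 225 of the 514 bases of Cd52-201 and 231 of the 1816 bases of Cd24a-201. Both were read from GENCODE M21, 5′ to 3′ on the coding strand, with the start and stop codons in capitals.
Cd52-201: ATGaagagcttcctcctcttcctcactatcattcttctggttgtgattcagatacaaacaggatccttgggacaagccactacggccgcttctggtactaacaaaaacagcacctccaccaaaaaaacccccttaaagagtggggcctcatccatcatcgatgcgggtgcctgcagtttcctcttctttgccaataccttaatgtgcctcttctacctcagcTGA
Cd24a-201: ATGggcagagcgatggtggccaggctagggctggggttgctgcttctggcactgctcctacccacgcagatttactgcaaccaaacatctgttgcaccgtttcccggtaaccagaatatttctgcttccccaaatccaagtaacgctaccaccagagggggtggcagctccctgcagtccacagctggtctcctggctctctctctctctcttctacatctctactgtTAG
The coding part of Cd52 spans chr4:134093727-134094984 with its intron and has 74 codons before the stop, and that of Cd24a spans chr10:43579254-43582765 with 76. Cd24a shares 96.8% of 218 aligned bases with Gm6212, which had 0 reads in all 9 libraries on the standard reference.

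Cd52 held 510, 408 and 558 TMM CPM in wildtype mice Z2754, Z2755 and Z2785. Eµ-MTCP1 mice Z2551, Z2606 and Z2641 held 756, 581 and 413, and Eµ-TCL1 mice B4376, B4437 and C1594 held 639, 820 and 591. The 3 Eµ-TCL1 mice lay above the 3 wildtype mice, and 2 of the 3 Eµ-MTCP1 mice did. The log2 fold change was 0.25 (-0.32 to 0.81; adjusted p = 0.584) in Eµ-MTCP1 and 0.47 (-0.09 to 1.04; adjusted p = 0.284) in Eµ-TCL1 mice. Cd52-201 took 99.6 to 99.9% of the reads of the gene on the standard reference.

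Cd24a encodes the heat-stable antigen, which is high on immature B cells and lower on follicular B cells. It held 52.8, 26.8 and 51.2 TMM CPM in wildtype mice Z2754, Z2755 and Z2785. Eµ-MTCP1 mice Z2551, Z2606 and Z2641 held 80.1, 95.7 and 91.7, all above wildtype, and Eµ-TCL1 mice B4376, B4437 and C1594 held 92.4, 49.5 and 87.8, of which B4437 lay within the wildtype range. Wildtype mouse Z2755, on its own lane, was the lowest of all 9.

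Cd24a was higher in the averaged comparison, with a log2 fold change of 0.92 ± 0.27 (SE; 0.33 to 1.52), a fold of 1.90 and an adjusted p of 0.0476. It was the only call among the 7 genes in the 4 comparisons. With each of the 9 libraries left out in turn the call held in 1 fit, that without Eµ-TCL1 mouse B4437 (adjusted p = 0.0261), and the change ranged from 0.64, without wildtype mouse Z2755 (adjusted p = 0.177), to 1.07. On the standard reference, with its larger read numbers, the change was 0.70 (0.05 to 1.36; adjusted p = 0.148), and with the deposited gene counts it was 0.70 (adjusted p = 0.137). Against wildtype alone, the change was 1.03 (0.37 to 1.70; adjusted p = 0.0581) in Eµ-MTCP1 and 0.81 (0.15 to 1.48; adjusted p = 0.123) in Eµ-TCL1 mice. With 1 library left out these 2 values ranged from 0.75 to 1.185 and from 0.53 to 1.02. Over all alternatives their lowest values were 0.522 and 0.345.

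GPI-anchored proteins need the PIG and PGAP enzymes, which build, attach and trim the anchor. Of 26 such genes tested of 27 listed, 2 rose and 1 fell in the averaged comparison, beside 13.1% of all genes called, with a median log2 change of 0.21. In Eµ-TCL1 against wildtype 0 of the 26 were called (9.2% of all genes), and in Eµ-MTCP1 Gpaa1 and Pigt were (9.48% of all genes). Gpaa1, a subunit of the transamidase that joins protein and anchor, rose from 54.1 ± 19.04 to 114 ± 8.18 and 93.7 ± 5.66 CPM (log2 0.93, adjusted p = 0.0181). Pigb, a mannosyltransferase, rose by 0.87 (adjusted p = 0.0312), and Pgap1, which removes a fatty acid from the inositol, fell by 1.40 on the log2 scale (adjusted p = 0.0367). Pigt is another transamidase subunit, and in the direct comparison of the leukemias 0 of the 26 genes were called (0.0448% of all genes).

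Complement kills cells coated by several of these antibodies, and it is held back by surface regulators. Of 4 such genes tested of 6 listed, 1 fell and 0 rose in the averaged comparison, beside 13.1% of all genes called. Their median log2 change was -0.06, beside -0.02 over all genes. Cd55, the decay accelerating factor and itself GPI-anchored, fell from 325 ± 95.01 to 115 ± 49.1 CPM in Eµ-MTCP1 and 154 ± 43.7 in Eµ-TCL1 mice (log2 -1.28, adjusted p = 0.0134). It was called in Eµ-MTCP1 alone but not in Eµ-TCL1 (adjusted p = 0.0750). Cd59a was not called and went the other way, from 1.85 ± 0.298 to 12.1 ± 9.03 and 6.99 ± 6.18 CPM. Cr1l, not called either, held 92.03 ± 43.3 CPM in wildtype, 74.5 ± 16.02 in Eµ-MTCP1 and 87.3 ± 2.36 in Eµ-TCL1 mice. The joint effect on complement was not tested.

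Cd38 (chr5:43868553-43912375, plus strand) had the lowest mean of the 7 per length. It held 110, 109 and 134 TMM CPM in wildtype mice Z2754, Z2755 and Z2785, then 129, 124 and 214 in Eµ-MTCP1 mice Z2551, Z2606 and Z2641, and 118, 127 and 139 in Eµ-TCL1 mice B4376, B4437 and C1594. Mouse Z2641 stood apart from the other 8, which all lay between 109 and 139. The log2 fold change was 0.41 (-0.10 to 0.91; adjusted p = 0.295) in Eµ-MTCP1 and 0.12 (-0.38 to 0.62; adjusted p = 0.786) in Eµ-TCL1 mice, and the latter was -0.08 on the standard reference (adjusted p = 0.891). Without mouse Z2641 the Eµ-MTCP1 value was 0.0791 on the coding reference and -0.14 on the standard reference. The retained-intron transcript Cd38-202 took 5.23 to 19.5% of the reads of the gene in transgenic and 7.23 to 17.97% in wildtype mice.

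Of 13 genes of NAD and extracellular nucleotide metabolism tested of 14 listed, 2 rose and 0 fell in the averaged comparison, a share near the 13.1% of all genes, with a median log2 change of 0.09. Both encode surface enzymes that work in turn on extracellular nucleotides. Entpd1 (CD39) rose from 17.9 ± 3.30 to 62.2 ± 36.2 CPM in Eµ-MTCP1 and 61.1 ± 14.7 in Eµ-TCL1 mice (log2 1.78, adjusted p = 0.0177). Nt5e (CD73) rose from 2.14 ± 1.44 to 13.2 ± 5.40 and 5.32 ± 1.81 CPM (log2 1.97, adjusted p = 0.0365), and was called in Eµ-MTCP1 but not in Eµ-TCL1 alone (adjusted p = 0.190).

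**Figure D3:**
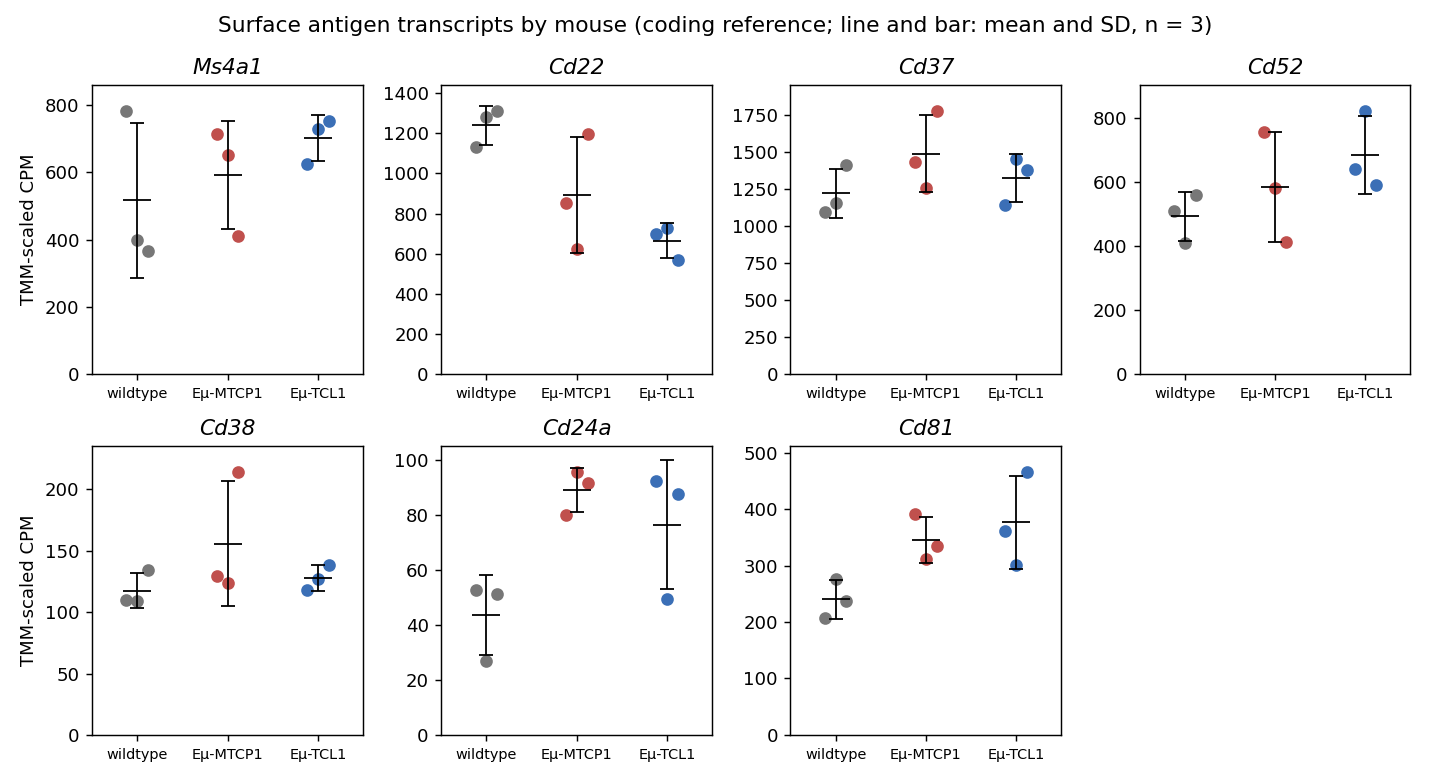
TMM-scaled CPM of each antigen on the coding reference, 1 panel per gene with axes from 0, with 1 point per mouse and the mean and SD of each group (n = 3). Cd81 is higher in all 6 transgenic mice than in the 3 wildtype mice, Cd22 is lower in 5 of 6, Cd24a is higher in 5 of 6, and Ms4a1 overlaps throughout.

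Over the 7 genes, 0 were called in Eµ-MTCP1 against wildtype, where 9.48% of all genes tested were called. At an unadjusted p under 0.05 there were 2, Cd81 and Cd24a (25% of all genes), DESeq2 called 1, Cd24a (14.8%), and the 3 Eµ-MTCP1 and 3 wildtype mice did not overlap for 2 (29.9%). In Eµ-TCL1 against wildtype 0 were called (9.2% of all genes), 3 had an unadjusted p under 0.05, namely Cd22, Cd81 and Cd24a (25.1%), DESeq2 called Cd22 and Cd81 (15.3%), and 3 genes did not overlap, namely Cd22, Cd52 and Cd81 (32.6%). In the averaged comparison 1 of 7 was called (13.1%), 3 had an unadjusted p under 0.05 (29.1%), and DESeq2 called those 3, Cd22, Cd24a and Cd81 (18.9%). The median log2 change of the 7 genes was 0.29 in Eµ-MTCP1 and 0.44 in Eµ-TCL1 mice, beside -0.02 and -0.01 over all genes, and the 2 comparisons share their wildtype mice.

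The antigens were also compared directly between the leukemias. In Eµ-TCL1 against Eµ-MTCP1, 0 of 7 were called by edgeR (0.0448% of all genes) and 0 by DESeq2 (0.657%), 0 had an unadjusted p under 0.05 (6.42%), and every gene overlapped between the groups (11% of all genes did not). Cd22 differed by a fitted -0.42 (-0.98 to 0.13; adjusted p = 0.821), which was -0.16 without Eµ-MTCP1 mouse Z2641 and -0.62 without Z2606. The intervals of the others reached from -0.79 to 0.22 for Cd38, from -0.88 to 0.44 for Cd24a, from -0.65 to 0.31 for Cd37, from -0.34 to 0.59 for Cd81, from -0.34 to 0.79 for Cd52 and from -0.45 to 0.95 for Ms4a1. These intervals do not show that the leukemias are alike in the antigens.

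**Figure D4:**
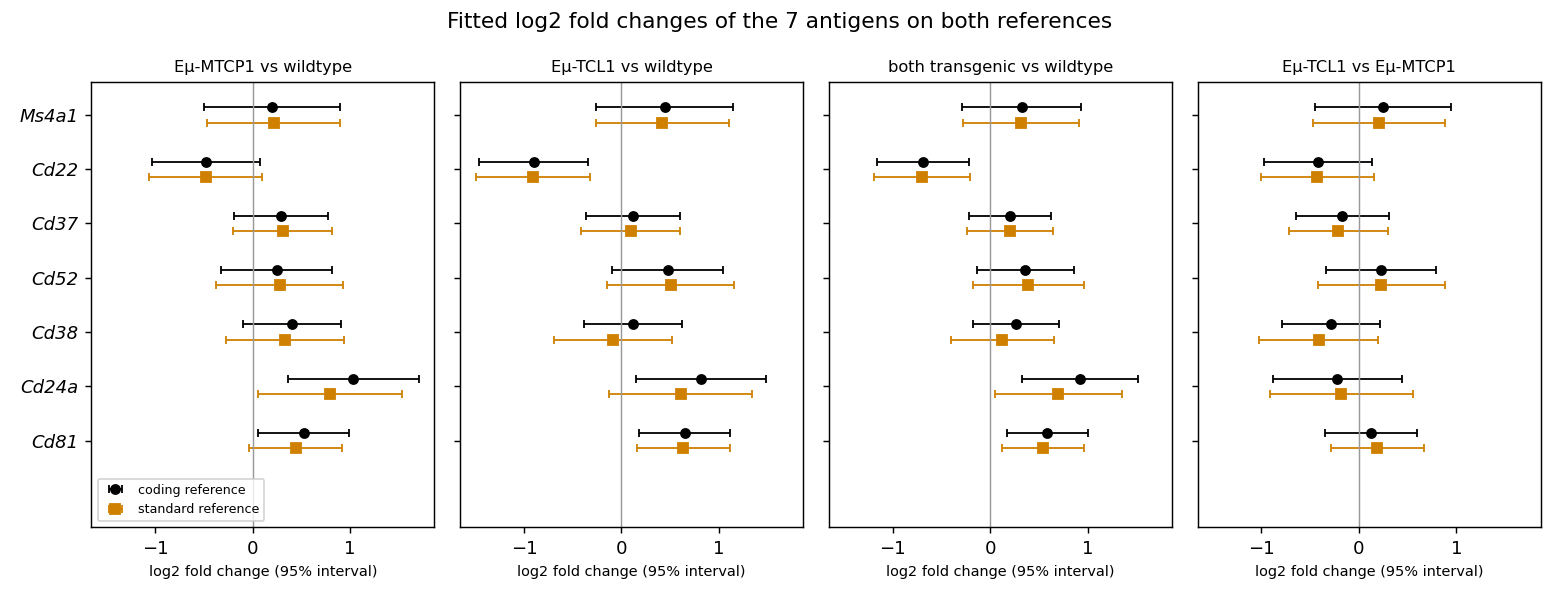
Fitted log2 fold change of each antigen with its 95% interval in 4 comparisons, on the coding reference (black circles) and the standard reference (orange squares). Cd22 lies left of 0 in the first 3 panels, Cd24a and Cd81 lie right of 0 there, and in the direct comparison of the leukemias every interval spans 0.

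Other surface antigens of B cells under study as targets were read as a list. Of 20 tested of 22 listed, 2 rose and 3 fell in the averaged comparison, where 13.1% of all genes were called, with a median log2 change of 0.23 beside -0.02 over all genes. Cd80, a ligand of CD28 and CTLA4, held 2.35 to 2.87 CPM in wildtype mice, whereas Eµ-MTCP1 mice held 21.02 to 23.14 and Eµ-TCL1 mice 15.8 to 31.5 (log2 3.20, adjusted p = 0.000103). Cxcr4, the receptor for CXCL12, fell from 85.1 ± 4.21 to 27.98 ± 20.7 and 24.7 ± 5.77 CPM (log2 -1.69, adjusted p = 0.00922). Fcer2a (CD23), with log2 -5.87, and Cd5, with log2 4.23, were the lowest and highest of the genes named from the list (adjusted p = 1.92e-05 and 0.00156), and Cd40 was the remaining gene that fell. Cd79a and Cd79b, the signaling chains of the B cell receptor and themselves antibody targets, had fitted log2 values of 0.12 and 0.30 in it (adjusted p = 0.716 and 0.370).

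Markers of B cells and of other cells were summed per mouse, and each set of 3 ranges is given in the order wildtype, Eµ-MTCP1, Eµ-TCL1. All 10 B cell markers were detected, with summed levels of 8588 to 9710, 9633 to 11020 and 7556 to 9915 CPM, and 1 of the 10, Ebf1, fell in the averaged comparison (log2 -0.73, adjusted p = 0.0107) and in Eµ-TCL1, though not in Eµ-MTCP1 alone (adjusted p = 0.0666). The 11 T cell markers summed to 6.51 to 21.3, 9.66 to 25.9 and 12.04 to 93.1 CPM, and Cd8a was at 0 in all wildtype mice. The 5 NK cell markers summed to 18.3 to 43.7, 1.16 to 11.5 and 2.52 to 39.7 CPM.

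The 13 myeloid markers summed to 858 to 1807, 863 to 1321 and 368 to 1575 CPM in the same order, and none was at 0 in a whole group. Cd68 alone of the 12 tested rose in the averaged comparison (log2 1.99, adjusted p = 0.00164), while Lyz2 stood at 765 ± 189, 392 ± 227 and 517 ± 470 CPM. The 10 erythroid and platelet markers summed to 39.6 to 174, 28.4 to 319 and 24.7 to 72.7 CPM, with Ppbp at 0 in every group and Pf4 at 0 in Eµ-TCL1 mice. Cells of these kinds can carry Cd24a, Cd37, Cd38, Cd52 and Cd81, and the part of such cells in the values above was not tested. The 7 plasma cell markers summed to 1117 to 1840, 928 to 3945 and 614 to 2888 CPM, and 2 of the 7, Prdm1 and Mzb1, rose in the averaged comparison (log2 1.97 and 1.47, adjusted p = 0.0164 and 0.0369). Prdm1 was called in each group alone, and Mzb1 in Eµ-MTCP1 but not in Eµ-TCL1 (adjusted p = 0.101).

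Genes with the profile most like that of each antigen were sought among 5863 genes, by the root mean square difference of mean-centred log2 CPM over the 9 libraries. The nearest genes lie below the median over all candidates by the way they were picked. How unusual their closeness is was not tested. Tmc8 and Hhex came nearest to Cd22, at 0.14 and 0.15 against a median of 0.56 over all candidates. Nucb1 and Cog1 came nearest to Cd81 (0.11 and 0.13, median 0.45), and Stambpl1 and Commd5 to Cd24a (0.18 and 0.25, median 0.65). Cd52 was nearest to Atp5g3 and Suclg1 (0.10 and 0.13), Cd37 to Nubp1 and Aurkaip1 (0.09 and 0.09), Cd38 to Polr2a and Hnrnpl (0.09 and 0.10) and Ms4a1 to Mdm4 and Ecpas (0.16 and 0.18). The SD of the antigens themselves over the 9 libraries ran from 0.22 for Cd37 to 0.62 for Cd24a on the same log2 scale.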

How the data were processed

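RNA-sequencing libraries of splenic B cells from 9 mice were grouped by the deposited labels. Expected counts (estimated reads per transcript) and TPM were made by the authors with Salmon 1.0.0 for each library, on a standard mouse reference and on 1 with human MTCP1 and TCL1 sequences added. Whole counts per gene were deposited in a further table, whose counter is not stated to belong to it in the sources used here. Values on a log2-like scale were made by the authors with DESeq2 and were used for the transgenes alone; the authors' own fold changes and p-values in these tables were not used. The kits named are SMARTer v4 with Nextera XT and a TruSeq stranded kit, so strand is uncertain, and 6 of the 7 genes overlap another gene, in most cases on the opposite strand.

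Here transcripts were joined to genes with GENCODE M21 (GRCm38), while the paper names release 23; the 442 mouse transcripts of the coding reference that M21 lacks, with 0.190 to 0.291% of the reads, were left out. Per gene, the estimated counts of its transcripts were added up and rounded. Genes passing filterByExpr (11165) were scaled by TMM and entered the two-sided quasi-likelihood test of edgeR (version 4.0.16 under R version 4.3.3) in a single model of the 9 libraries, with Benjamini-Hochberg adjustment over all genes tested in each of 4 comparisons. Genes with an adjusted p under 0.05 were called, and adjusted p-values in the text are from this fit unless DESeq2 (1.42.0) is named. The averaged comparison of both transgenic groups with wildtype is the mean of the 2 group coefficients minus wildtype. TPM were summed per gene. Wald tests of DESeq2, other scalings, no filter, the standard reference, the gene count table, length offsets, fits without immunoglobulin segments or without each library served as alternatives. The scripts were tested on simulated data. Depth was 6464089 to 8053017 assigned reads on the coding reference, where 3 reads correspond to 0.326 to 0.496 CPM. Coding sequences were cut from M21 transcripts, and shared sequence was sought with BLAST+ 2.17.0 (at least 95% identity over 100 bases). There were 0 columns of per-sample values that could not be mapped.

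The 7 genes and the other lists were chosen with earlier results of these data known. Besides the 7, up to 4 genes per list were named, with the largest change in both transgenic groups among genes called in any comparison at 5 CPM or more, together with Cd79a, Cd79b and the 2 genes nearest in profile to each antigen among those at 20 CPM or more. Cd40, Lyz2, Cd59a and Cr1l were named after their values were seen. Each mouse is 1 replicate. Reads carry no molecular identifiers. Some genes and lists that were tested are not reported here.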

Additional observations from a re-analysis of the deposited data

How the results depend on the processing

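No paired analysis was possible because the labels give no replicate numbers; the numbers 1 to 3 used below follow the order of the samples and pair no mice. Of the 7 antigens, 0 were called in Eµ-MTCP1 against wildtype, and 1 was with no filter or with DESeq2 (0 to 1 with 1 library left out). In Eµ-TCL1 against wildtype 0 were called, against 1 with library size alone, with length offsets or with only the groups compared, and 2 with DESeq2 on either reference (0 to 1 with 1 library left out, on either reference). In the averaged comparison of both transgenic groups with wildtype 1 was called, Cd24a, against 0 with DESeq2 size factors in edgeR, the standard reference, the gene count table, length offsets or no immunoglobulin segments, 3 with DESeq2, 2 with DESeq2 on the standard reference, and 0 to 1 with 1 library left out on either reference; with library size alone the 1 call was Cd22 (log2 -0.88, adjusted p = 0.0216), and without Eµ-MTCP1 mouse Z2641 it was Cd22 too (-0.85, adjusted p = 0.0129). In Eµ-TCL1 against Eµ-MTCP1 the count was 0 throughout. DESeq2 and left-out libraries on the standard reference were chosen after seeing the data. With library size alone the median of all genes in the averaged comparison moved to -0.21 and calls split into 560 higher and 1161 lower, against 776 and 688. That scaling turned Ms4a1 in Eµ-MTCP1 to -0.0287, Cd37 and Cd38 in Eµ-TCL1 to -0.0155 and -0.0147, and in the averaged comparison Cd79a to -0.061, Nubp1 to -0.0365, Aurkaip1 to -0.0204 and Polr2a to -0.0066. Cd38 in Eµ-TCL1 turned to -0.084 on the standard reference, to -0.0763 in the gene count table and to -0.095 with DESeq2 on the standard reference, where leaving out wildtype replicates 1 (Z2785), 2 (Z2755) and 3 (Z2754) gave -0.0908, -0.15 and -0.0243, Eµ-TCL1 replicates 1 (C1594), 2 (B4437) and 3 (B4376) -0.17, -0.13 and -0.0529, and Eµ-MTCP1 mice -0.12 each. Also on the standard reference, Cd37 in Eµ-TCL1 turned to -0.0118 without Z2754 and -0.0014 without B4437, Cd52 in Eµ-MTCP1 to -0.0343 without Z2551, and Cd38 without Z2641 to -0.14 in Eµ-MTCP1 and -0.13 in the averaged comparison. With 1 library left out, Cd22 in Eµ-MTCP1 ranged from -0.77 to -0.31, Cd37 from 0.12 to 0.40, Cd38 from 0.08 to 0.52 and Cd52 from 0.0141 to 0.41, and in Eµ-TCL1 Cd37 from 0.02 to 0.23, Cd38 from 0.04 to 0.22 and Cd52 from 0.30 to 0.57. In Eµ-TCL1 against Eµ-MTCP1, leaving out 1 library moved Cd38 from -0.43 to 0.0072 (without Z2641), Cd24a from -0.38 to 0.0117 (without B4437) and Cd81 from -0.0578 (without C1594) to 0.26, and on the standard reference Cd38 reached 0.0177 and Cd52 -0.0116 without Z2641 and Cd24a 0.0331 without B4437. Cd79a in the averaged comparison ranged from -0.021 (without wildtype mouse Z2755) to 0.17. All-gene calls in the averaged comparison fell from 1464 to 802 without Z2755 and 763 without Z2754. Direction and call held in 706 of 777 antigen values recomputed, but almost all of these had no call to lose. The 1 call, Cd24a in the averaged comparison, held in 3 of its 27 recomputed values. The cause of these changes was not tested. Cd24a rests on 247 to 674 reads per mouse on the coding reference, and Cd38 on 1522 to 3332 on the standard reference.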
